A study of Mus musculus with 16 samples.

Results

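The 10 genes described here carry peptides to the cell surface for T cells to read. B2m, H2-K1, H2-D1, Tap1, Tap2, Psmb8 and Psmb9 belong to the class I route of the major histocompatibility complex (MHC), and Cd74, H2-Aa and H2-Ab1 belong to the class II route. They were chosen by name, with earlier results of these data known, and found through the RefSeq accession of each array probe. They are 10 of the 17436 genes tested. They had 16 probes, of which 15 were bright enough to keep, and every one of the 10 genes had at least 1 kept probe. The arrays measured RNA from the cerebral cortex of 16 male mice, 1 array per mouse, in 4 groups of 4. Mice were Neil1-/- animals backcrossed on a C57BL/6 background or their wild-type littermates, aged 28 to 42 weeks. NEIL1 is a DNA glycosylase that starts the repair of oxidised bases. Irradiated mice of each genotype received 6 Gy of gamma radiation over the whole body at 0.74 Gy/min, sham mice went through the same handling without it, and the cortex was taken 20 h later. All 4 groups shared the injections of BrdU, a thymidine analogue that marks DNA synthesis, at 100 mg/kg, given once before and once 2 h after exposure. Which part of Neil1 was deleted is not in the labels.

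Class I molecules sit on nearly all nucleated cells and show peptides cut from proteins made inside the cell. The immunoproteasome cuts the peptides, the TAP transporter pumps them into the endoplasmic reticulum, and there they bind a heavy chain paired with beta-2 microglobulin. Class II molecules are made mainly by professional antigen-presenting cells and show peptides from material taken up from outside. In the healthy brain class II is largely held by macrophages and dendritic cells at the meninges, vessels and choroid plexus, and microglia and neurons make little of it, while interferons raise both routes.

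The stretch between Tap1 and Psmb9 and the regions just upstream of 3 other genes are shown because these genes differed in how they varied between mice. Tap1 and Psmb9 start 226 bases apart and are read in opposite directions, so the first sequence holds the upstream region of both. Only Tap1 of this pair had arrays that did not overlap between irradiated and sham mice. The B2m and H2-K1 windows stand for the class I group and the H2-Aa window for class II. All are RefSeq sequences of GRCm38.p6, written 5′ to 3′ on the strand given, and 7 of the 10 genes had an entry in the table used. They lie at chr17:34187331-34187555 (plus strand), chr2:122147437-122147686 (plus strand, B2m), chr17:34000348-34000597 (minus strand, H2-K1) and chr17:34287824-34288073 (minus strand, H2-Aa). The 3 single-gene windows are the 250 bases before the annotated start.
Tap1-Psmb9 intergenic: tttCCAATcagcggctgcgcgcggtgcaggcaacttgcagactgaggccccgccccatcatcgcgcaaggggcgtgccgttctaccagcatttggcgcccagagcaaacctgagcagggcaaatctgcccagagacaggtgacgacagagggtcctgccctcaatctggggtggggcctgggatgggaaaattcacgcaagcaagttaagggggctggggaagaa
B2m promoter: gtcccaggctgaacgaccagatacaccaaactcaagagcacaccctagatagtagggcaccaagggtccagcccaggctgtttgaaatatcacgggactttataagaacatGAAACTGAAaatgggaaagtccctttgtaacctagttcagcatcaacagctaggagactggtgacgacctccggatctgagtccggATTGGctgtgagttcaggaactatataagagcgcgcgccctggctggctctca
H2-K1 promoter: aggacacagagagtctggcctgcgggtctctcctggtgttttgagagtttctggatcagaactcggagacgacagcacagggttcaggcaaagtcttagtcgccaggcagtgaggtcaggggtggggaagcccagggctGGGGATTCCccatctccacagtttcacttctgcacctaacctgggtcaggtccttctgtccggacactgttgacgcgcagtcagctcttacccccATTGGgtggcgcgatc
H2-Aa promoter: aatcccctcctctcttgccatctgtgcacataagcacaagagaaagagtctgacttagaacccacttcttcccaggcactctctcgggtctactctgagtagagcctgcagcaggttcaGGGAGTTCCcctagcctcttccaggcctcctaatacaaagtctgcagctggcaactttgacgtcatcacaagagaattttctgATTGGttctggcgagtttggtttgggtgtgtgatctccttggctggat

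Capitals mark matches, on either strand, to 4 motifs: the CCAAT box (CCAAT), a kappaB-like core (GGGNNTTCC), a STAT site of the GAS type (TTCNNNGAA) and the core of an interferon-stimulated response element (GAAANNGAA). B2m held 1 response element core 131 bases before its start and 1 CCAAT box. H2-K1 held 1 kappaB-like match 103 bases before its start and 1 CCAAT box. H2-Aa held 1 kappaB-like match 123 bases before its start and 1 CCAAT box. The stretch shared by Tap1 and Psmb9 held 1 CCAAT box and none of the other 3 motifs, and none of the 4 sequences held a p53 half-site. Of 32851 upstream windows of 250 bases, 7.13% held the response element core, 4.98% the kappaB-like core, 7.02% the GAS motif, 33.8% a CCAAT box and 7.13% a p53 half-site. In windows of 225 bases the shares were 6.33%, 4.59%, 6.23%, 31.6% and 6.37%. The letters of the kappaB-like and response element cores were settled after the sequences had been seen, and a match describes letters, not binding. Only exact matches to these letters were counted. A related site spelled or spaced otherwise would be missed, so a missing match does not show that a window lacks such a site.

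Some properties of the arrays touch every comparison. All wild-type arrays lay on slide 1 and all arrays labelled knockout on slide 2, each scanned once, so slide and genotype cannot be told apart. On both slides the sham arrays filled row 1 and the irradiated arrays row 2, so row and treatment cannot be told apart either. The 75th percentile of the processed intensity averaged 2415 in wild-type sham and 1333 in irradiated labelled knockout arrays. The Neil1 probe lay between -4.32 and -3.30 on the 8 wild-type arrays and between -2.60 and -2.15 on the 8 arrays labelled knockout, so it was brighter in the latter. Its place in the transcript is not known here, it does not check the labels, and every direction between genotypes rests on the labels. Levels here are log2 signals minus the 75th percentile of their array, on which 0 is a bright probe and each unit is a doubling. Cortical neuron genes were bright, with Camk2a at a mean level of 5.44 and Tbr1 at 4.37. In bulk tissue, fewer cells of a type and less RNA per cell cannot be told apart. The labels do not say that the mice of a group came from separate litters or days, and p-values measure the spread between these 16 mice.

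No gene of the 10 passed the test for irradiation in either genotype, but the class I transporter gene Tap1 and the 3 class II genes stood apart from the other 6 in size. Tap1 was 1.39-fold brighter in irradiated than in sham mice when both genotypes were averaged, and class II genes were dimmer, Cd74 by 1.91-fold, H2-Aa by 2.08-fold and H2-Ab1 by 2.00-fold. The H2-Aa value moved with the background correction, from a log2 change of -1.06 to -0.22 with normexp. The other 6 genes had log2 changes from -0.07 to 0.21 in that average. With limma and Benjamini-Hochberg adjustment over all genes, 0 of 10 were called in wild type (0.0746% of all genes were called), 0 of 10 in labelled knockout (0.12%) and 0 of 10 in the average (0.304%). At an unadjusted p under 0.05 the counts were 1 in wild type, 3 in labelled knockout and 3 in the average. The median log2 change of the 10 was -0.10, -0.02 and -0.05 in these contrasts, beside 0.01, 0.00 and 0.00 over all genes. Arrays did not overlap between irradiated and sham mice for 1 of the 10 in wild type, where 1.97% of all genes did not overlap, and for 1 of the 10 in labelled knockout, where the share was 2.19%. Both times that gene was Tap1, with irradiated mice higher.

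**Figure D1:**
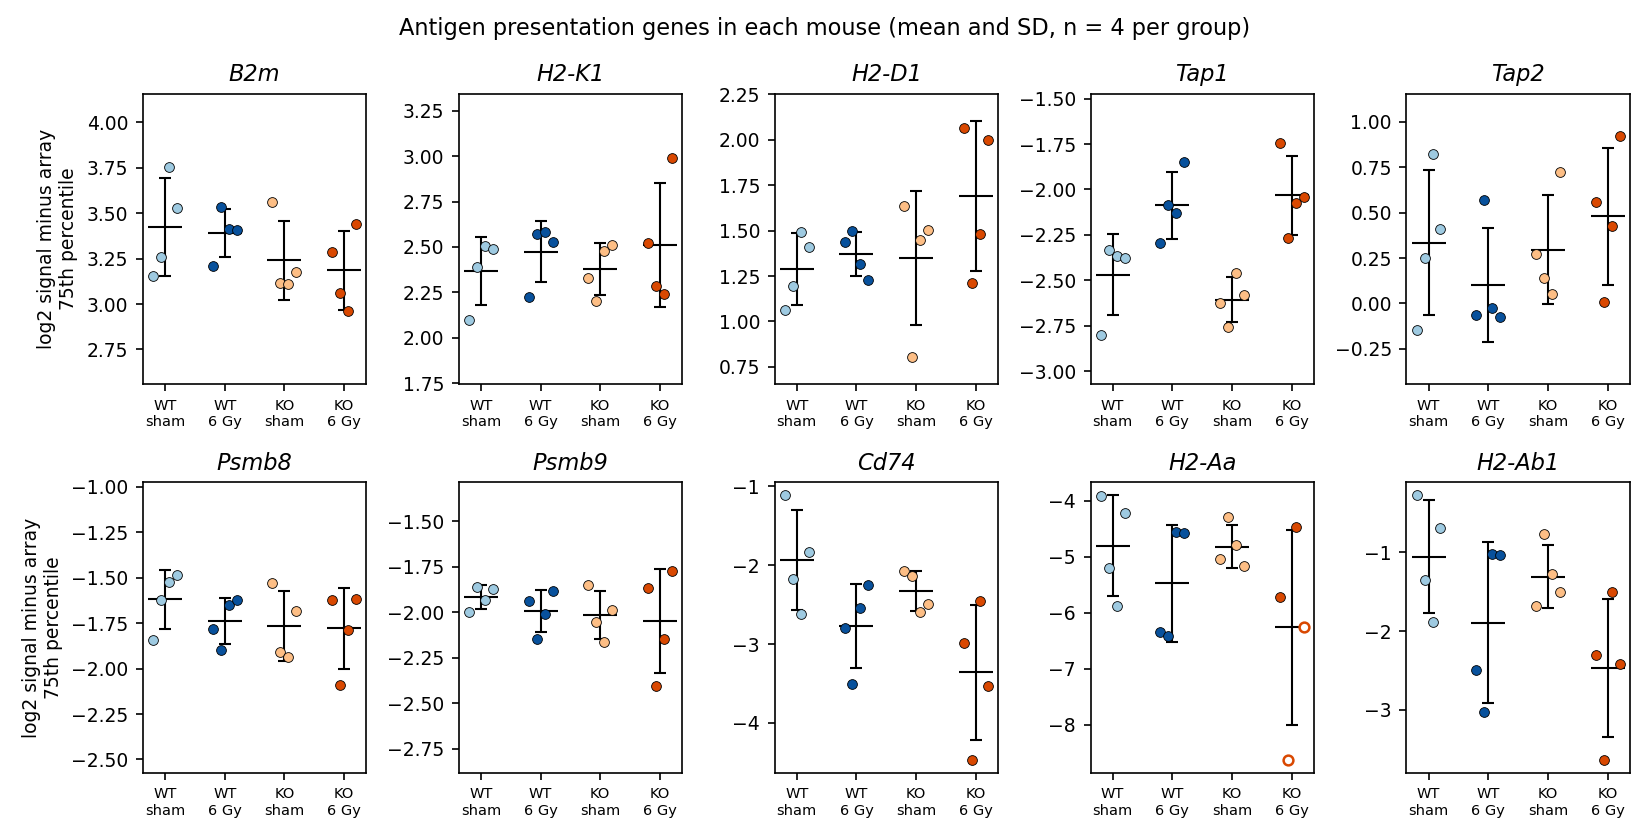
Level of each of the 10 genes in every mouse, by group, as log2 signal minus the 75th percentile of its array. Points are mice, bars are the mean and SD of 4, open points were not well above background, and each panel has its own axis. Irradiated mice lie above sham mice for Tap1 in both genotypes, and the 3 class II genes spread most within groups, except in labelled knockout sham mice, where Cd74 spread less than H2-D1 and Tap2.

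Tap1 encodes a subunit of the peptide transporter. Its brighter probe read -2.80, -2.33, -2.37 and -2.37 in wild-type sham mice and -2.29, -2.08, -2.13 and -1.85 in irradiated wild type. In labelled knockout mice it read -2.62, -2.76, -2.46 and -2.58 after sham and -1.74, -2.27, -2.07 and -2.04 after irradiation. Every irradiated mouse thus lay above every sham mouse of its genotype, though the gap in wild type between the highest sham and the lowest irradiated mouse was narrow. The log2 change was 0.38 ± 0.14 (SE, n = 4 per group) in wild type (limma adjusted p = 1.0) and 0.57 ± 0.14 in labelled knockout (adjusted p = 0.298). Averaged over genotypes it was 0.48 ± 0.10 (95% confidence interval 0.27 to 0.69, adjusted p = 0.064), which ranked 61 among all genes by p and missed the threshold. The change differed between genotypes by 0.19 ± 0.20 (interaction, adjusted p = 1.0).

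A second Tap1 probe, dimmer but well above background on all 16 arrays, gave larger changes in the same direction. It read -5.44, -5.15, -5.18 and -5.18 in wild-type sham mice and -4.35, -4.69, -4.93 and -4.15 in irradiated wild type, again with no overlap. In labelled knockout mice it read -4.91, -5.12, -4.53 and -5.18 after sham and -3.53, -4.37, -3.40 and -3.69 after irradiation. The log2 change of this probe was 0.71 in wild type, 1.19 in labelled knockout and 0.95 in the average. When all 39589 kept probes were tested singly, it rose in the average (limma adjusted p = 0.0221), as 1 of 15 probes of the 10 genes and beside 0.147% of all probes called. The brighter probe had an adjusted p of 0.14 in that fit. In the single contrasts 0 of the 15 probes were called in wild type (0.0404% of all probes) and 0 in labelled knockout (0.0455%), with 2 and 6 at an unadjusted p under 0.05. Several of the 15 probes read the same gene, such as those of Tap1 and H2-Ab1, so these are not counts of separate genes. The share of all probes at that unadjusted p was not counted. When the 2 Tap1 probes were averaged, Tap1 rose by 0.71 (adjusted p = 0.00997), and with array weights the brighter probe alone was called at 0.47 (adjusted p = 0.0417). Whether Tap1 counts as changed therefore turned on the choice of probe and of weights, and its irradiation change was above 0 in every setting tried.

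Tap2 encodes the partner subunit of the same transporter. Its kept probe in wild-type mice read -0.14, 0.25, 0.82 and 0.41 after sham and -0.06, 0.57, -0.02 and -0.07 after irradiation. The labelled knockout arrays gave 0.27, 0.14, 0.05 and 0.72 after sham and 0.56, 0.01, 0.43 and 0.92 after irradiation. These groups overlapped fully. The log2 change was -0.23 ± 0.23 (SE) in wild type, 0.18 ± 0.23 in labelled knockout and -0.03 ± 0.17 in the average, and a second Tap2 probe was above background on 1 array only and was not tested. The interval of the average, -0.38 to 0.33, overlapped that of Tap1, and the difference between the 2 genes was not tested.

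The class I chains were bright in all mice and moved little. B2m, which encodes beta-2 microglobulin, the light chain of every class I molecule, averaged 3.42 ± 0.27 (SD, n = 4) in wild-type mice after sham and 3.39 ± 0.13 after irradiation, and 3.24 ± 0.22 and 3.19 ± 0.22 in labelled knockout mice. Each group in that order overlapped the next. H2-K1, a classical heavy chain, averaged 2.37 ± 0.19, 2.47 ± 0.17, 2.38 ± 0.14 and 2.51 ± 0.34 in the same order. H2-D1, the other classical heavy chain, averaged 1.29 ± 0.20, 1.37 ± 0.12, 1.35 ± 0.37 and 1.69 ± 0.41. The average log2 changes with irradiation were -0.04 ± 0.11 (SE) for B2m, 0.12 ± 0.11 for H2-K1 and 0.21 ± 0.14 for H2-D1, none of which passed the test. For B2m the 95% confidence interval of the average ran from -0.28 to 0.19, and for H2-K1 from -0.12 to 0.36. A second H2-K1 probe changed by 0.15 in the average, without passing the test. Heavy chain genes are close relatives, the probe sequences were not used here, and how far each probe also reads other heavy chains was not tested.

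Among the 4 groups, H2-D1 spread most in irradiated labelled knockout mice, with an SD of 0.41 against 0.37 in labelled knockout sham. The irradiated mice read 2.07, 1.21, 1.48 and 2.00, against 1.64, 0.81, 1.45 and 1.51 in labelled knockout sham. The change there was 0.34 ± 0.20 (SE, adjusted p = 1.0), with the groups overlapping, and it was 0.16 without sham replicate 2, the lowest of these mice.

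Psmb8 and Psmb9 encode 2 catalytic subunits that replace their constitutive counterparts in the immunoproteasome. Psmb8 ran from -2.09 to -1.49 over the 16 mice and Psmb9 from -2.41 to -1.77. The average change with irradiation was -0.07 ± 0.09 (SE) for Psmb8 and -0.06 ± 0.09 for Psmb9, with 95% confidence intervals from -0.27 to 0.13 and from -0.25 to 0.14. Psmb9 is the gene that shares its upstream stretch with Tap1, and its irradiated and sham arrays overlapped in both genotypes.

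**Figure D2:**
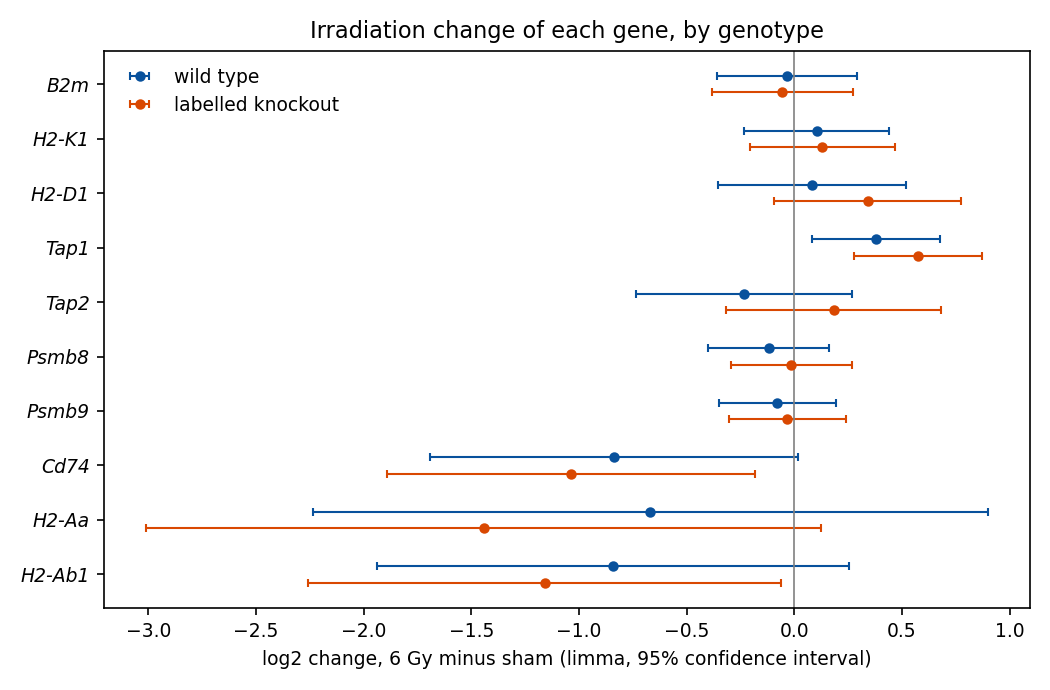
Log2 change with irradiation (6 Gy minus sham) for each gene in wild-type and labelled knockout mice, as points with 95% confidence intervals from limma. Before adjustment the intervals of Tap1 lie above 0 in both genotypes, and those of Cd74 and H2-Ab1 lie below 0 in labelled knockout only. The intervals of the class II genes are wider than those of every class I gene.

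Cd74 encodes the invariant chain, which escorts class II molecules and blocks their groove until they reach the endosome. It read -1.11, -2.17, -2.62 and -1.83 in wild-type sham mice and -2.80, -3.50, -2.54 and -2.25 in irradiated wild type. In labelled knockout mice it read -2.08, -2.14, -2.59 and -2.49 after sham and -2.99, -4.46, -2.45 and -3.53 after irradiation. The group means were lower after irradiation in both genotypes, but each irradiated group held at least 1 mouse inside the range of its sham group. The log2 change was -0.84 ± 0.40 (SE) in wild type and -1.04 ± 0.40 in labelled knockout, and -0.94 ± 0.28 in the average (95% confidence interval -1.54 to -0.33, adjusted p = 0.473).

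H2-Ab1 encodes the class II beta chain. Wild-type mice read -0.27, -1.36, -1.89 and -0.69 after sham and -2.50, -3.02, -1.02 and -1.03 after irradiation. The labelled knockout arrays gave -1.68, -0.77, -1.28 and -1.50 after sham and -2.30, -3.63, -1.51 and -2.42 after irradiation. In irradiated wild type 2 mice were low and the other 2 lay within the sham range. In labelled knockout 3 of 4 irradiated mice lay below all sham mice. The average change was -1.0 ± 0.36 (SE, 95% confidence interval -1.78 to -0.22, adjusted p = 0.726), and the 4 H2-Ab1 probes gave -1.0, -0.98, -1.10 and -0.78.

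H2-Aa encodes the alpha chain that pairs with H2-Ab1. It was dim, and wild-type mice read -3.91, -5.20, -5.88 and -4.22 after sham and -6.34, -6.42, -4.55 and -4.57 after irradiation. In labelled knockout mice it read -5.05, -4.29, -4.78 and -5.16 after sham and -5.71, -8.63, -4.46 and -6.25 after irradiation. Replicates 2 and 4 of irradiated labelled knockout were not well above background, so 2 of 4 arrays of that group measured the gene and the other values are those of near-background spots. The average change was -1.06 ± 0.52 (SE, 95% confidence interval -2.16 to 0.05, adjusted p = 1.0). With normexp background correction H2-Aa changed by -0.31 in wild type, -0.12 in labelled knockout and -0.22 in the average, against -0.67, -1.44 and -1.06, while in the average Cd74 gave -0.68 and H2-Ab1 -0.82.

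The 3 class II genes were low in the same mice, and single mice weighed on their values. Without replicate 2 of irradiated labelled knockout, the change in that genotype was -0.67 for Cd74, -0.65 for H2-Aa and -0.77 for H2-Ab1, and the average over genotypes was -0.75, -0.66 and -0.81. In wild type, leaving out 1 array gave -1.07 to -0.56 for Cd74, -1.03 to -0.35 for H2-Aa and -1.13 to -0.46 for H2-Ab1. The values nearest to 0 came without sham replicate 1 for Cd74 and without irradiated replicate 2 for H2-Aa and H2-Ab1. The sign stayed below 0 for each of the 3 genes in both genotypes and in the average under every normalization, filter and left-out array tried, except that H2-Aa has no value when all 16 arrays must be above background. None of these changes was called in any of them.

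Genotype made no called difference to the 10 genes. Between labelled knockout and wild-type sham mice 0 of 10 were called by limma, against 0.0516% of all genes. At an unadjusted p under 0.05 there were 0 of 10, against 7.69% of all genes. The log2 differences ran from -0.39 for Cd74 to 0.06 for H2-D1. After irradiation 0 of 10 were called, against 1.18% of all genes. At an unadjusted p under 0.05 there were again 0 of 10, against 16.6% of all genes. The differences there were 0.38 ± 0.23 (SE) for Tap2 and 0.32 ± 0.20 for H2-D1, and -0.59 ± 0.40 for Cd74, -0.79 ± 0.73 for H2-Aa and -0.57 ± 0.51 for H2-Ab1, with the smallest adjusted p of the 10 at 0.46. The class II differences rested on 1 mouse and on the processing. Without replicate 2 of irradiated labelled knockout they were -0.22 for Cd74, 0.00 for H2-Aa and -0.18 for H2-Ab1, and with normexp -0.23, 0.35 and -0.39. Arrays of the 2 genotypes overlapped for all 10 genes in sham mice, where 4.82% of all genes did not overlap, and after irradiation, where 8.73% did not. Among single probes 0 of 15 were called in sham (0.0455% of all probes) and 0 of 15 after irradiation (4.67%), with 0 and 1 at an unadjusted p under 0.05. The dimmer Tap1 probe came closest, 0.78 higher in labelled knockout after irradiation (limma adjusted p = 0.0573). The brighter Tap1 probe differed there by 0.06 (adjusted p = 0.881). In sham mice the dimmer probe gave 0.30 and the brighter -0.14, so the probes of this gene disagreed on genotype.

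The response to irradiation was not shown to differ between genotypes for any of the 10. The interaction called 0 of 10 genes and 0% of all genes, with 0 of 10 and 222 of 17436 at an unadjusted p under 0.05. Single probes gave 0 of 15 and 0% of all probes, with 0 of 15 at that unadjusted p. The estimates farthest from 0 were -0.77 ± 1.04 (SE) for H2-Aa and 0.42 ± 0.33 for Tap2. That of H2-Aa was 0.01 without replicate 2 of irradiated labelled knockout and 0.19 with normexp, and that of Tap2 ran from 0.25 to 0.58 over all alternatives.

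Pooled over the 4 groups, mice of one group differed more in class II than in class I genes. The pooled SD within groups was 0.611 for Cd74, 0.788 for H2-Ab1 and 1.13 for H2-Aa on the log2 scale, larger than in 90.2%, 94.7% and 98.3% of all genes. The H2-Aa value includes irradiated labelled knockout, with an SD of 1.74, where replicates 2 and 4 were not well above background. Among the 7 class I genes it ran from 0.171 for Psmb9 to 0.35 for Tap2, beside a median of 0.245 over all genes. Labelled knockout sham mice were an exception, with an SD of 0.253 for Cd74, 0.385 for H2-Aa and 0.396 for H2-Ab1 beside 0.370 for H2-D1 and 0.299 for Tap2. After subtracting each group's mean, the 3 class II genes followed each other over the 16 mice. Pearson's r was 0.91 for Cd74 and H2-Aa (Spearman's rho 0.84), 0.88 for Cd74 and H2-Ab1 (rho 0.81) and 0.95 for H2-Aa and H2-Ab1 (rho 0.98). In a two-sided permutation test within groups (100000 resamples), adjusted over 45 pairs, the p-values were 0.00225, 0.00225 and 0.00045, where 0.00001 is the smallest unadjusted p the resamples can give. Without the 2 mice farthest from the median r was 0.83, 0.82 and 0.97.

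Class I genes also correlated with each other, but 1 of their 21 pairs passed the same permutation test on Pearson's r and 3 passed it on Spearman's rho. Psmb8 and Psmb9 passed both, with r of 0.86 (permutation test, adjusted p = 0.00259) and rho of 0.85 (adjusted p = 0.012), and r of 0.80 without the 2 farthest mice. The other two pairs by rank were H2-D1 with Tap2 (rho 0.76, adjusted p = 0.0123) and B2m with Tap2 (rho 0.74, adjusted p = 0.046). All 21 class I pairs had r above 0, from 0.41 to 0.86. Between the classes 0 of 21 pairs passed either version, with r from -0.32 to 0.39. The r of pairs drawn from all genes on these arrays was not computed. Whether pairs within either class exceed such pairs was therefore not tested. The permutation test compares a pair with no shared variation, so it cannot separate variation of these genes from variation shared by whole arrays. Within the wild-type slide (8 mice) r was 0.88, 0.90 and 0.98 for the 3 class II pairs in the order above and 0.71 for Psmb8 and Psmb9, and within the other slide 0.94, 0.87, 0.97 and 0.92.

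**Figure D3:**
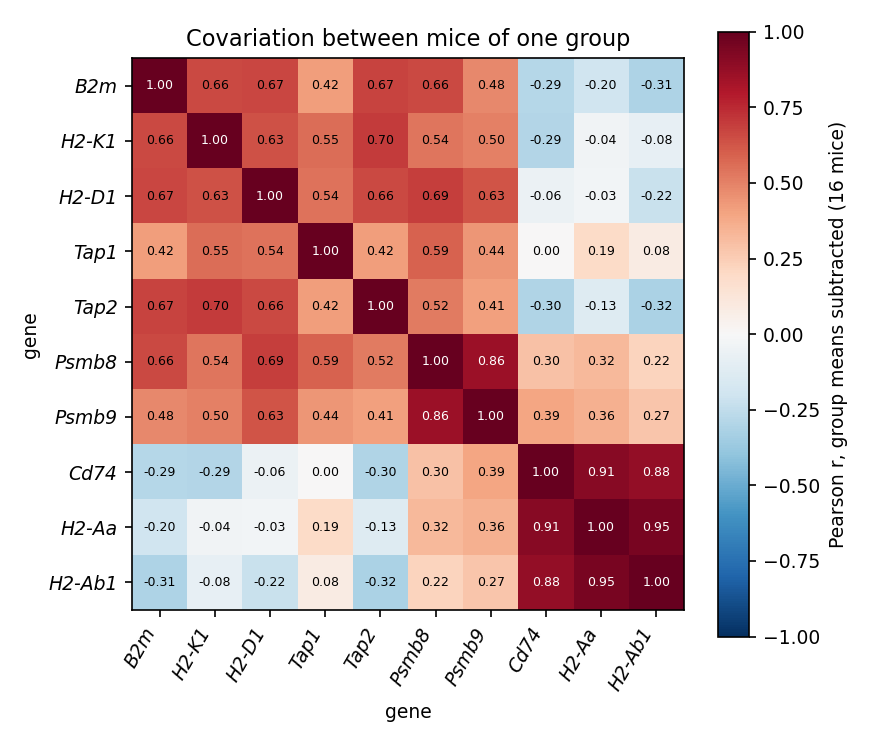
Pearson's r between each pair of the 10 genes over 16 mice after subtracting group means, on a colour scale from -1 to 1 with the value in each cell. The 3 class II genes form a block of 0.88 to 0.95, the class I genes a looser block of 0.41 to 0.86, and values between the blocks stay between -0.32 and 0.39.

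The genes outside the 10 whose values over the 16 mice were most like the class II mean, again with group means subtracted, were Slc6a13 (r of 0.96), Gstm2 (0.95), Emp3 (0.93), H2-Eb1 (0.93) and Aldh1a2 (0.93). H2-Eb1 is another class II beta chain, Slc6a13 is a GABA transporter and Aldh1a2 makes retinoic acid. For class I they were Scrn2 (0.93), Tmem238 (0.92), the heavy chain genes H2-K2 (0.92) and H2-Q7 (0.91), and Ggt6 (0.90). These are the highest of 17370 genes compared, and all points share the array scaling.

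Slc6a13 and Aldh1a2 are known from fibroblasts of the leptomeninges, the thin membranes on the cortical surface, so 12 marker genes of those cells were read after these values had been seen. The summed linear level of the 12 genes ran in wild-type mice from 10.2 to 19.9 times the 75th percentile after sham and 7.15 to 22.7 after irradiation, and in labelled knockout mice from 8.49 to 15.2 and 4.22 to 16.9. All 12 were tested, each well above background on at least 4 arrays. Over the 16 mice the mean of the 3 class II genes followed the mean of the 12 markers with r of 0.90 (rho 0.94, and 0.89 without the 2 farthest mice), within the wild-type slide with 0.84 and within the other slide with 0.97. For the class I mean r was 0.11. Since 2 of the 12 markers were among the genes most like class II, these correlations describe the arrays and carry no test. With irradiation 11 of the 12 markers were lower in the average, 0 were called by limma, 0 had an unadjusted p under 0.05, and the median change was -0.10. With the marker level as a covariate, a setting added after seeing the data, the average change was -0.83 for Cd74 (adjusted p = 0.172), -0.82 for H2-Aa (0.289), -0.84 for H2-Ab1 (0.065) and 0.49 for Tap1 (0.0784). The genotype difference was then -0.24 for Cd74, -0.01 for H2-Aa and -0.04 for H2-Ab1 after irradiation, and -0.13, 0.57 and 0.15 in sham mice, where it had been -0.39, -0.02 and -0.25. The covariate holds genes picked for their likeness to class II, so it takes up class II variation by construction and tests no cause. The markers were lower in labelled knockout for 12 of 12 in sham and 11 of 12 after irradiation, with medians of -0.29 and -0.51. How much membrane each piece of cortex carried is not in the labels, and its part in the class II values was not tested.

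**Figure D4:**
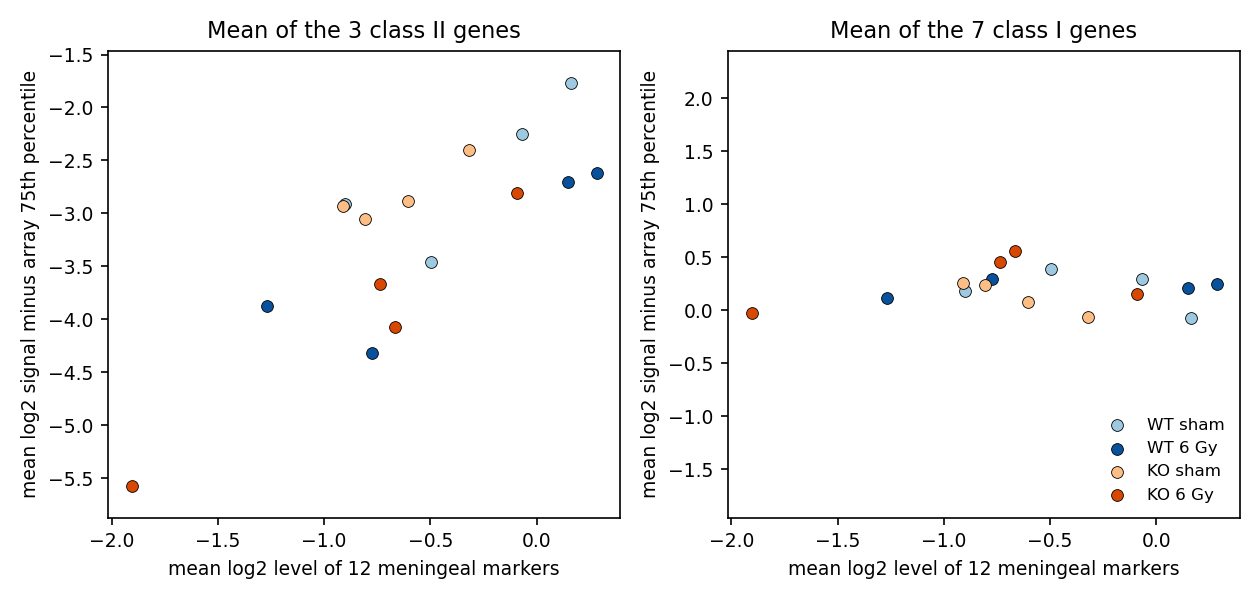
Mean level of the 3 class II genes (left) and of the 7 class I genes (right) in each mouse against the mean level of 12 leptomeningeal marker genes in the same mouse, both as log2 signal minus the 75th percentile of the array, coloured by group. Axes span the same number of log2 units. Mice with a higher marker level have a higher class II mean (r of 0.90 with group means subtracted), and the class I mean shows little such relation (r of 0.11).

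Cells known to carry class II or to live beside the cortex were read through lists of their markers. Of 8 microglial markers 1 was called with irradiation in the average: P2ry12, a purinergic receptor, fell by 0.69 ± 0.07 (SE) on the log2 scale (adjusted p = 0.000219), and it also fell in each genotype. The 8 had a median change of -0.24, 7 of 8 were lower, and 4 had an unadjusted p under 0.05, all of them lower. The 2 brightest, Siglech and Csf1r, gave 0.33 ± 0.24 and -0.44 ± 0.10 (adjusted p = 0.128 for Csf1r). The summed microglial level ran in wild-type mice from 42.5 to 47.7 after sham and 36.1 to 42.3 after irradiation, and in labelled knockout mice from 31.4 to 50.2 and 35.3 to 46.6. The part of these cells in the class II values was not tested.

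Border macrophages had 0 of 8 markers called and 0 at an unadjusted p under 0.05, with a median change of 0.01. The brightest, Pf4 and Cbr2, gave -0.28 ± 0.17 (SE) and 0.01 ± 0.19, and the summed level ran from 1.17 to 1.75, 0.945 to 1.82, 1.06 to 1.33 and 0.821 to 1.31 in the 4 groups, wild type first and sham before irradiated. Dendritic cells had 0 of 6 tested markers called and 0 at an unadjusted p under 0.05, with 2 of 6 higher, a median of -0.25 and a range from -0.46 to 0.31, and the brightest, Flt3 and Batf3, at -0.13 and -0.45. Xcr1 and Clec9a were not above background on enough arrays to test. Their summed level ran from 0.744 to 1.15, 0.567 to 1.04, 0.558 to 0.941 and 0.591 to 0.919 in the same group order. Among B cell markers, Ms4a1 and Cd79a did not reach the background filter. Cd79b, a subunit of the B cell receptor, fell by 0.74 ± 0.11 on average (adjusted p = 0.00409), while Cd22, the brightest, gave -0.22 ± 0.18. Pax5, a B cell transcription factor, was the 1 of 3 tested that was higher, at 0.34 ± 0.14 (unadjusted p = 0.0292, adjusted p = 0.884), and the median of the 3 was -0.22. The 3 B cell genes summed to 0.216 to 0.28, 0.165 to 0.242, 0.171 to 0.303 and 0.158 to 0.264. Their part in the class II values was not tested.

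T and NK cell markers had 0 of 4 tested genes called and 0 at an unadjusted p under 0.05, with the brightest, Cd4 and Cd3e, at 0.10 ± 0.39 and 0.26 ± 0.16. Of the 4, 2 were higher and 2 lower, from -0.19 to 0.26, with a median of 0.02. Neutrophil and monocyte markers had 0 of 4 called and 1 at an unadjusted p under 0.05, with Ly6c2 at 0.31 ± 0.12 and S100a9 at 0.78 ± 0.47. In that list 3 of 4 were higher, from -0.14 to 0.84, with a median of 0.54. Endothelium had 0 of 6 called and 2 at that unadjusted p, with Ly6c1 at 0.25 ± 0.11 and Flt1 at -0.17 ± 0.22. Choroid plexus, excitatory neurons, astrocytes and oligodendrocytes had 0 called and 0 at that unadjusted p. Ttr, Camk2a and Slc1a3, the brightest of the first 3 lists, gave 0.70 ± 0.52, 0.28 ± 0.14 and -0.07 ± 0.10. Clic6, Tbr1, Aldh1l1 and, for oligodendrocytes, Mbp gave 0.46, 0.15, 0.06 and 0.06.

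Genes that work with the 10 were read from lists in the same average contrast. Among class I and class I-like chains 0 of 16 tested were called, 1 had an unadjusted p under 0.05 and the median change was 0.01. The smallest p belonged to H2-Q10, a heavy chain best known as secreted, at 0.43 ± 0.16 (SE, adjusted p = 0.726), then to Mr1, which presents vitamin B metabolites, at 0.17 ± 0.09, and H2-Q4, at -0.44 ± 0.24. Class I peptide loading had 0 of 10 called and 0 at an unadjusted p under 0.05, with a median of 0.02. Tapbpl, a tapasin relative that edits peptides, gave 0.14 ± 0.13, Lnpep, an aminopeptidase, 0.14 ± 0.14, and Hspa5, the chaperone BiP, 0.08 ± 0.09.

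Proteasome genes stayed close to 0. Immunoproteasome partners gave 0 of 3 called and 0 at an unadjusted p under 0.05, with Psmb10, the remaining inducible catalytic subunit, at 0.00 ± 0.10, Psme1, an activator subunit, at -0.02 ± 0.15 and Pomp, an assembly chaperone, at 0.01 ± 0.10. The constitutive core had 0 of 14 called and 0 at that unadjusted p, with Psmb6 at 0.10 ± 0.08, Psmb2 at -0.10 ± 0.10 and Psma2 at 0.06 ± 0.10.

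On the class II side, 1 gene outside the 10 passed. Ctss, the protease cathepsin S that trims the invariant chain encoded by Cd74, fell by 0.43 ± 0.08 (SE) on the log2 scale (adjusted p = 0.0461), from 4.22 ± 0.17 (SD, n = 4) to 3.83 ± 0.20 in wild type and from 3.99 ± 0.11 to 3.51 ± 0.13 in labelled knockout. It was the 1 of 9 class II processing genes called, and the median of that list was 0.03. Microglia are known to make Ctss, and their part in its fall was not tested. Of class II chains and loading factors 0 of 6 tested were called, 2 had an unadjusted p under 0.05, and the median was -0.24. Of these 6 genes 2 were higher, and the changes ran from -0.64 to 0.50. H2-Oa, a subunit of the peptide-exchange inhibitor H2-O, gave -0.64 ± 0.14 (adjusted p = 0.128), H2-DMb1, a subunit of the exchange factor H2-M, -0.29 ± 0.11, and H2-Eb1 -0.58 ± 0.28.

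Regulators of both routes had 0 of 13 called and 2 with an unadjusted p under 0.05, with a median of -0.06. Ciita, the master activator of class II genes, gave -1.01 ± 0.27 (SE, adjusted p = 0.282) and was well above background on 8 of 16 arrays, so its values are partly those of near-background spots. In wild-type mice it averaged -5.76 ± 0.66 (SD, n = 4) after sham and -6.65 ± 0.70 after irradiation, in labelled knockout mice -7.14 ± 0.58 and -8.27 ± 0.25, and its genotype difference after irradiation was -1.62 (adjusted p = 0.0537). Irf8, a myeloid transcription factor, gave -0.25 ± 0.10 and Nlrc5, the activator of class I genes, 0.33 ± 0.19.

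Interferon signalling had 0 of 13 called and 2 with an unadjusted p under 0.05, both higher, and a median of 0.00. Irf7, an interferon-induced transcription factor, gave 0.56 ± 0.17 (SE, adjusted p = 0.495), Irf9, a partner of STAT proteins, 0.23 ± 0.09 and Socs1, an inhibitor of the pathway, -0.24 ± 0.11. Co-stimulation and class I receptors had 0 of 9 called and 4 with an unadjusted p under 0.05, all 4 of them higher. Of the whole list 5 of 9 were higher, with a median of 0.05 and a range from -0.35 to 0.71. Icam1, an adhesion molecule at the T cell contact, gave 0.71 ± 0.18 (adjusted p = 0.21), Lilrb4a, an inhibitory receptor of myeloid cells, 0.62 ± 0.17, and Pirb, a receptor that binds class I molecules, 0.46 ± 0.17.

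**Figure D5:**
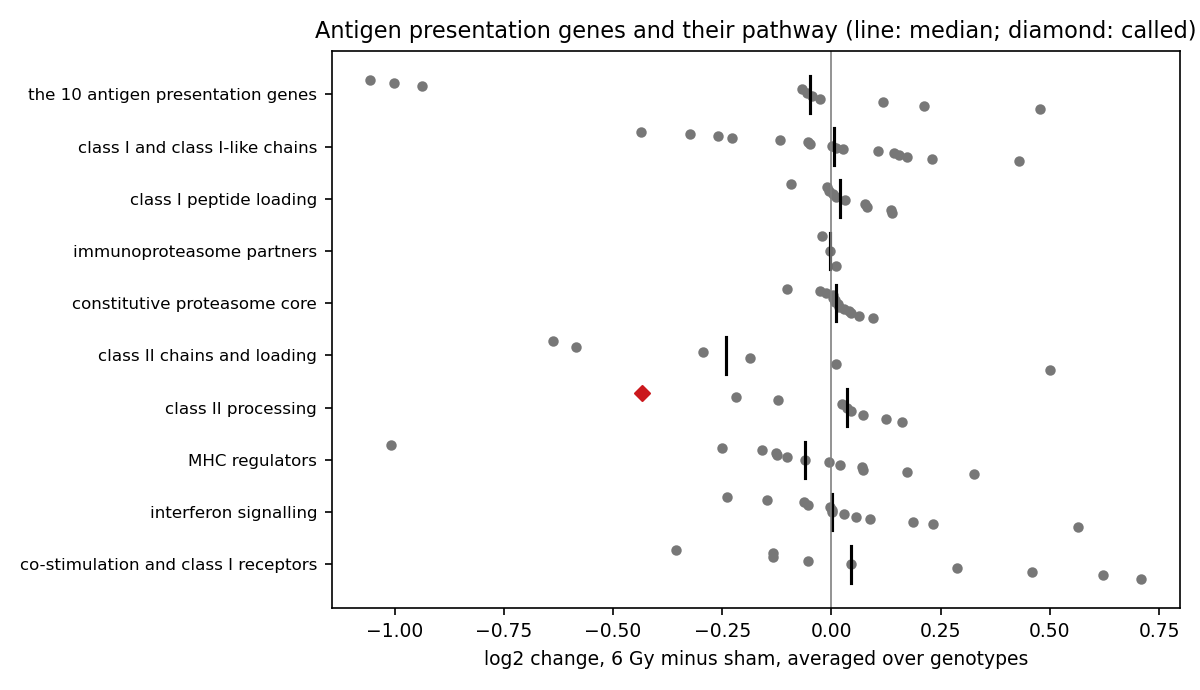
Log2 change with irradiation, averaged over genotypes, of the 10 genes and of each list of related genes. Points are genes, black lines list medians, and the diamond is Ctss, the only gene shown with an adjusted p under 0.05. Among the lists of genes outside the 10, class II chains and loading have the lowest median, -0.24, while the 3 class II genes of the 10 lie between -1.06 and -0.94.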

How the data were processed

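Cortex RNA of 16 mice was labelled with Cy3 and hybridised to 1-colour Agilent arrays, 1 per mouse. Per the file headers, spots were read with Agilent Feature Extraction 12.0.3.1. The deposited intensity is the program's background-subtracted, detrended processed signal, not scaled between arrays. The authors also deposited a score for 42859 features per array, with mean 0 and SD 1, and no source used here says how it was made. It served as an alternative. The deposited flags gave well-above-background and outlier marks.

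Levels were log2 intensity minus the 75th percentile of the array, and the number of arrays limits precision. Probes well above background on at least 4 of 16 arrays were kept (39589 of 56605). RefSeq accessions covered 35886 probes, and 32994 of these matched the RefSeq table of GRCm38.p6, whose build differs from the older build named by the array design and which gave names and promoter sequences only. The brightest kept probe stood for a gene. One limma 3.58.1 model (R 4.3.3, statmod 1.5.0) with a mean per group covered 17436 genes, with 12 residual degrees of freedom, two-sided p-values and Benjamini-Hochberg adjustment per contrast. Calls required an adjusted p under 0.05. The code was tested on simulated data. Python 3 scripts computed correlations and motif matches.

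The 10 genes and the lists were chosen with earlier results of these data known. The text names the 10 genes with all probes, the called genes of each pathway list or otherwise its 3 with the smallest p in the average contrast, the 2 brightest markers per cell type, Neil1, and the 5 genes most like each class. A few marker genes under that rule are not reported here. P2ry12, Cd79b, Pax5 and the leptomeningeal markers were named after their values were seen. Alternatives were normexp (on median spot signals, because mean signals were not in the columns used), quantile normalization, the deposited scores, 2 other filters, 2-group fits, the mean of all kept probes, trended variances, weights per array, a replicate block, and leaving out each array.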

Additional observations from a re-analysis of the deposited data

Results flagged for a closer look

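In 4 of 40 groups of 4 mice, 1 mouse lay apart from the other 3 by Dixon's criterion, and chance flags about 1 in 20 groups. B2m was highest in replicate 1 of labelled knockout sham, at 3.56, with the next mouse at 3.17. H2-K1 was lowest in replicate 1 of irradiated wild type, at 2.22, with the next at 2.53. Tap1 was lowest in replicate 1 of wild-type sham, at -2.80, with the next at -2.37, and without this mouse the Tap1 change in wild type was 0.27 and the average over genotypes 0.42. Tap2 was highest in replicate 2 of irradiated wild type, at 0.57, with the next at -0.02.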

How the results depend on the processing

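Of 1594 values of the 10 genes under alternatives, none was called and reversed, 2 passed the threshold where the reported value did not, and 87 uncalled values changed sign, none of them for class II genes with irradiation. The number of the 10 genes called in the average was 1 with the mean of all kept probes and 1 with array weights, Tap1 both times. The other counts of the 10 called stayed at 0. Counts over all genes moved more, and the cause was not tested. With array weights they were 21 for irradiation in wild type, 84 in the average, 45 for genotype in sham and 434 for genotype after irradiation. Fits of only the 2 groups compared, with fewer arrays, called 6 for irradiation in labelled knockout, 2 for genotype in sham and 18 for genotype after irradiation, and could not be made for the average or the interaction. Genotype after irradiation gave 3382 genes with normexp, 96 with quantile normalization, 81 with the deposited scores, 1798 without a filter on dim probes, 494 with the mean of all kept probes and 45 with the meningeal covariate, against 205 reported. Leaving out 1 array gave 10 to 16 called genes in wild type, 11 to 22 in labelled knockout, 38 to 47 in the average, 5 to 14 for genotype in sham and 17 to 470 for genotype after irradiation, so that last count moved by over 1.5 times without any 1 of the 8 irradiated arrays (17 without replicate 3 and 470 without replicate 1 of irradiated wild type). In labelled knockout it was 11, 13 and 13 without sham replicates 2, 3 and 4, and for genotype in sham 14 and 5 without labelled knockout replicates 2 and 3.

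The replicate number as a block changed no call of the 10 genes and gave 13 called genes for irradiation in labelled knockout against 21 reported. On average, same-numbered arrays did not deviate together (mean r of 0.04 over 24 pairs, against -0.01 over 72 other pairs). Of 16 arrays, 5 correlated best with an array of their own number. The replicate number was also the slide column on every array, so number and column cannot be told apart. The 75th percentile was lower for replicate 4 than for replicate 1 in every group, with 2078 against 2725 in wild-type sham. These correlations use values scaled to that percentile. H2-Aa has no value when probes must be above background on all 16 arrays. Signals of H2-Aa and Ciita near background limit what their changes can show. The genotype and slide, and treatment and row, cannot be told apart.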
